A study of Mus musculus with 6 samples.

Results

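The genes described here encode the beta subunits of the sodium-potassium pump (Atp1b1, Atp1b2 and Atp1b3) and cation-chloride cotransporters (Slc12a2, Slc12a4, Slc12a5 and Slc12a7). They are 7 of the 19937 genes with at least 1 probe set under a single symbol in the platform annotation, and were chosen by name. Each gene is represented by its brightest probe set, by the mean of 6 arrays, and Atp1b3 alone of the 7 had a second one, so 8 probe sets were read in all. Values are the authors' log2 expression values, 1 whole-transcript array per sample, and a difference is the norepinephrine mean minus the KCl mean on that scale.

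The cells were primary neurospheres, the floating colonies formed in culture by neural precursor cells, grown from minced hippocampus. The donors were adult C57BL/6J males, 8 to 12 weeks old. One group was grown with 10 µM norepinephrine (3 samples) and the other with 15 mM KCl (3 samples). Both had the complete medium with EGF and bFGF, and both were harvested on day 14 as what the labels call big neurospheres. No untreated group was analysed here, so a difference shows only how the treatments compare with each other. The replicates are labelled biological, without a statement of whether each came from its own animal or culture. P-values therefore measure the spread between these samples, which may be technical.

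The pump is an enzyme in the plasma membrane that uses ATP to carry sodium out of the cell and potassium into it, against their gradients. A catalytic alpha subunit does the transport, and a glycosylated beta subunit is needed for the enzyme to mature and reach the surface. The sodium gradient it builds drives the cotransporter NKCC1 (Slc12a2), which brings sodium, potassium and chloride into the cell, while the potassium gradient drives KCC1, KCC2 and KCC4 (Slc12a4, Slc12a5 and Slc12a7), which let potassium and chloride out. In brain, astrocytes use the pump to clear extracellular potassium, immature neurons hold high chloride through NKCC1, and mature neurons lower it through KCC2. Adding KCl to a medium raises the extracellular potassium that the pump and these carriers handle.

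The array of KCl replicate 1 stood apart. Its SD over the named probe sets was 1.38 log2 units, against 1.62 to 1.78 on the other 5 arrays. Its highest Pearson correlation with another array over these probe sets was 0.929, whereas each of the other 5 arrays had one of at least 0.984. In the 2164 brightest probe sets, KCl replicate 1 read 0.63 below the mean of KCl replicates 2 and 3 (median), and over all named probe sets 0.25 above it. Values without that array are therefore given beside those of 6 arrays for each of the 7 genes and for the other genes whose sign or size it moved. The 9 measured neural stem cell markers read between 6.66 and 13.15 on these arrays, among them Sox2 at 9.43 to 10.50 and Vim at 11.41 to 12.24. The mean over the stem cell list lay between 9.33 and 9.80 on the 6 arrays. For 7 markers of the oligodendrocyte lineage the mean lay between 7.48 and 8.00. Among these, Olig2 read 9.88 to 10.33 and the myelin gene Mag 5.96 to 7.21. Means over the 8 microglial, 7 endothelial, 5 pericyte and 7 ependymal or choroid plexus markers lay between 5.90 and 7.13 on every array. Single markers of these lists read higher, up to 8.25 for Trem2 on KCl replicate 1. Signal over background could not be assessed.

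Of the 7 genes, 4 had a higher mean with norepinephrine and 3 a lower one, with no call among them. Tested by limma and adjusted by the Benjamini-Hochberg method over all named probe sets, 0 of 21640 (0%) had an adjusted p under 0.05, and the adjusted p of the 7 genes ran from 0.939 to 0.976. At an unadjusted p under 0.05 stood 1 of the 7, Atp1b2, where 3.43% of all named probe sets did. The groups did not overlap in 2 of the 7, Atp1b2 and Slc12a4, both higher with norepinephrine, against 4.36% of all named probe sets in that direction. With so few genes these counts say little on the family as a whole. The median difference of the 7 was 0.22, beside -0.07 over all named probe sets, and without KCl replicate 1 it was 0.14, beside 0.0083. On those 5 arrays 0 of the 7 passed, beside 0.0185% of all named probe sets.

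**Figure D1:**
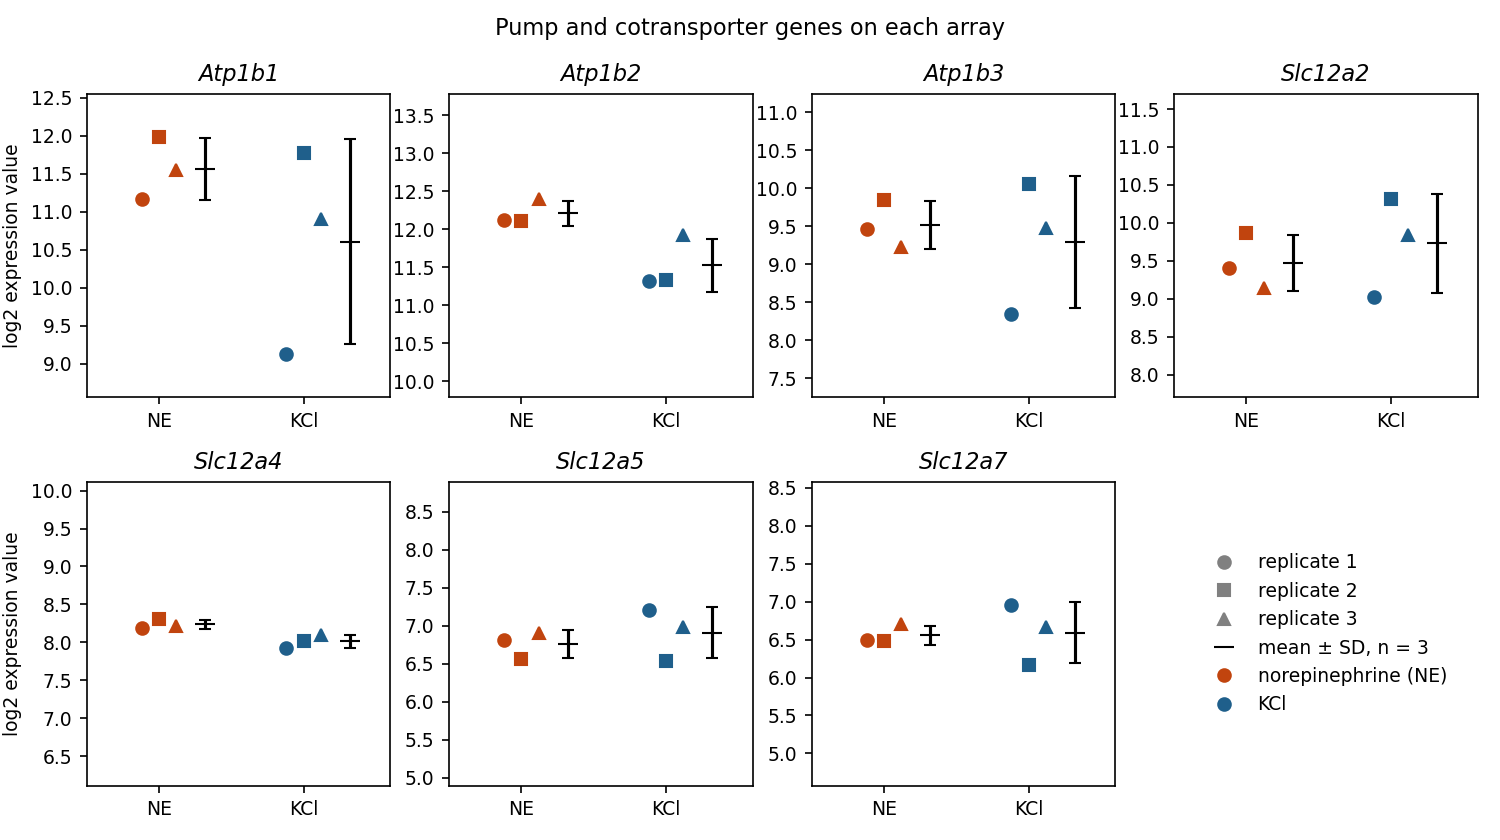
Log2 expression value of each gene's representing probe set on each array, norepinephrine (NE) left of KCl, with symbols for the replicate numbers and bars for the mean ± SD (n = 3). Every panel spans 4 log2 units. Only for Atp1b2 and Slc12a4 do all 3 norepinephrine arrays lie above all 3 KCl arrays, and KCl replicate 1 is far below the others for Atp1b1, at 9.13.

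The beta subunits come first. Atp1b2 encodes the beta 2 subunit, known as the adhesion molecule on glia, which is prominent in astrocytes. It read 12.12, 12.11 and 12.40 with norepinephrine, against 11.32, 11.33 and 11.92 with KCl. Every norepinephrine array lay above every KCl array, with a gap of 0.19 between the nearest pair. The means were 12.21 ± 0.16 with norepinephrine and 11.52 ± 0.35 with KCl (SD, n = 3 each). The difference was 0.69 ± 0.23 (log2, SE by limma, 95% interval 0.17 to 1.20), a 1.61-fold difference, with an unadjusted p of 0.0147 and an adjusted p of 0.939 by limma. Without KCl replicate 1 it was 0.58 ± 0.21 (0.10 to 1.07). Atp1b2 was thus the gene of the 7 whose interval lay above 0 both with and without the array that stood apart. With norepinephrine replicate 3 left out instead, the difference was 0.59 with an unadjusted p of 0.0682 by limma.

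Markers of astrocytes were read beside Atp1b2. The list was chosen with earlier results of these data known. Of its 8 markers, 7 were higher with norepinephrine on 6 arrays. An unadjusted p under 0.05 was found for 6, where 3.43% of all named probe sets had one, and 0 passed over all probe sets. Their median difference was 0.94, or 0.45 without KCl replicate 1. The mean over the list was 9.34 to 9.47 on the norepinephrine arrays and 8.26 to 8.68 on the KCl arrays. Gfap, the astrocytic intermediate filament, stood at 1.89 ± 0.30, the sodium-driven glutamate transporter Slc1a2 at 0.61 ± 0.24 and the gap junction protein Gja1 at 0.73 ± 0.28. On 5 arrays without KCl replicate 1, Slc1a2 stood at 0.41 and Gja1 at 0.40. Gfap there stood at 2.17 ± 0.24 with an adjusted p of 0.045 by limma. It was 1 of the 4 named probe sets of 21640 called on those arrays. The calcium-binding protein S100b lay on the other side, at -0.29 ± 0.19, or -0.19 without KCl replicate 1. In a bulk sample, fewer cells of a type and less RNA per cell cannot be told apart, and the part of these markers in the Atp1b2 difference was not tested.

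Atp1b1 encodes the beta 1 subunit, the most widely expressed one, abundant in neurons and epithelia. It read 11.17, 11.98 and 11.55 with norepinephrine, against 9.13, 11.78 and 10.91 with KCl. KCl replicate 1 was the lowest of the 6 by 1.78, while KCl replicate 2 lay above 2 of the norepinephrine arrays, so the groups overlapped. The difference was 0.96 ± 0.58 (95% interval -0.35 to 2.27), a 1.95-fold difference and the largest of the 7 genes on 6 arrays (unadjusted p = 0.132 by limma). Without KCl replicate 1 it was 0.22 ± 0.30 (-0.45 to 0.90), a 1.17-fold difference. That array read 2.21 below the mean of the other 2 KCl arrays for Atp1b1, where the 2164 brightest probe sets had a median of 0.63 below. Without KCl replicate 2, by contrast, the difference was 1.55 (unadjusted p = 0.0101 and adjusted p = 0.305 by limma). In that fit 3532 of 21640 named probe sets had an unadjusted p under 0.05. Leaving out any other single array gave 0.75 to 1.16, so the Atp1b1 difference moved most with KCl replicates 1 and 2.

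Atp1b3 encodes the beta 3 subunit, found in many tissues. Its representing probe set read 9.46, 9.85 and 9.23 with norepinephrine, against 8.34, 10.05 and 9.47 with KCl. The KCl arrays held both the lowest and the highest value. The difference was 0.23 ± 0.40 (-0.68 to 1.14) on 6 arrays and -0.25 ± 0.24 (-0.79 to 0.29) without KCl replicate 1, so its direction rests on that array. The second probe set read 8.36, 9.15 and 8.41 with norepinephrine, against 7.46, 9.80 and 8.39 with KCl. It differed by 0.09 ± 0.52, and by -0.45 ± 0.39 without KCl replicate 1. Both probe sets thus had a positive sign on 6 arrays and a negative one on 5, and they correlated over the 6 arrays with a Pearson r of 0.94 (Spearman rho of 0.83).

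Over the 6 arrays Atp1b1 and Atp1b3 followed each other, with a Pearson r of 0.92 (Spearman rho of 0.71), or 0.60 without KCl replicate 1. Slc12a5 ran against both, with r of -0.88 to Atp1b1 and -0.92 to Atp1b3, or -0.86 and -0.89 without that array. Slc12a7 also ran against Atp1b3, at -0.92, and with Slc12a5, at 0.92, and Slc12a2 followed Atp1b3 at 0.87. All genes of an array share its labelling and normalization, so these values describe the arrays and are not tests. Over all 6 arrays, Slc12a5 read lower the larger an array's SD over the named probe sets. It read 7.20 on KCl replicate 1 (SD 1.38), 6.99 on KCl replicate 3 (1.62) and 6.54 on KCl replicate 2 (1.78). Leaving out KCl replicate 1 does not remove that order, and its part in these correlations was not tested. The bases upstream of Atp1b1, Atp1b3 and Slc12a5 are shown as examples of genes that followed or opposed each other over the arrays. They were also chosen because each has a RefSeq promoter entry that begins at the annotated gene start. The entries of Slc12a4 and Slc12a7, and a further entry each of Atp1b3 and Slc12a5, overlap the annotated gene and are not shown. The sequences are the 250 bases before the annotated gene start, from RefSeq on GRCm38.p6, which held promoter entries for 5 of the 7 genes. Capitals mark matches on either strand to GGGCGG (a GC box, the site read by Sp1), CCAAT (the CCAAT box), TATAA (the TATA box) and TGACG (the shorter core of the cAMP response element).
Atp1b1, chr1:164458356-164458605, minus strand: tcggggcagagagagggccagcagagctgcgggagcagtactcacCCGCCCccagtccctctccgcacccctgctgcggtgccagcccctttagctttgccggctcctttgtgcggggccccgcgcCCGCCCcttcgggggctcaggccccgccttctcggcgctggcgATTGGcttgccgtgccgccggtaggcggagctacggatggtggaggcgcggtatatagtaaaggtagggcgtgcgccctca
Atp1b3, chr9:96364432-96364681, minus strand: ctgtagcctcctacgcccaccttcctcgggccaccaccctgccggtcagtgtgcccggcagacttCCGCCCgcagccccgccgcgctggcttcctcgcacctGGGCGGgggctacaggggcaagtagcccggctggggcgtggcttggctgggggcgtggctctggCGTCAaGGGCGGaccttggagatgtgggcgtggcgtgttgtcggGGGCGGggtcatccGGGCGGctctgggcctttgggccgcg
Slc12a5, chr2:164960596-164960845, plus strand: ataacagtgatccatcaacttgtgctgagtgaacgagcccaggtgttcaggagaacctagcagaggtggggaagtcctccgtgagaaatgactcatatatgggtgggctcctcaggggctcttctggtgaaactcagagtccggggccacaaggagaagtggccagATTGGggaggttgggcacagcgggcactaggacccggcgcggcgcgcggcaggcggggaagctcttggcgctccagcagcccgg

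The Atp1b1 window held 2 GC boxes and 1 CCAAT box, and the Atp1b3 window held 5 GC boxes and 1 cAMP response core. The Slc12a5 window held 1 CCAAT box and no GC box. None of the 3 held TATAA. The further entry of Atp1b3 held none of these motifs, and that of Slc12a5 held 1 GC box and no CCAAT box. Of 32851 upstream windows of the same length, 32.7% held a GC box, 33.8% a CCAAT box, 22.8% TATAA and 17.8% that core. The share of G and C was 70.4% for Atp1b1, 73.6% for Atp1b3 and 61.2% for Slc12a5, against a median of 52.4% over all windows. A match is a string of letters and not a shown binding site. The Atp1b1 window also overlaps the annotated gene Gm32391.

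Among the cotransporters, Slc12a2 encodes NKCC1, the importer. It read 9.41, 9.87 and 9.14 with norepinephrine, against 9.03, 10.31 and 9.84 with KCl. KCl replicate 1 was the lowest array and KCl replicate 2 the highest. On 6 arrays the difference was -0.25 ± 0.34 (95% interval -1.02 to 0.51). Without KCl replicate 1 it was -0.60 ± 0.24 (-1.15 to -0.05), with an unadjusted p of 0.0348 and an adjusted p of 1 by limma, where 4.63% of all named probe sets had an unadjusted p under 0.05. Even then the groups overlapped, since norepinephrine replicate 2 at 9.87 lay above KCl replicate 3 at 9.84. Without KCl replicate 2 the difference was 0.04, so its sign too depends on 1 array.

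**Figure D2:**
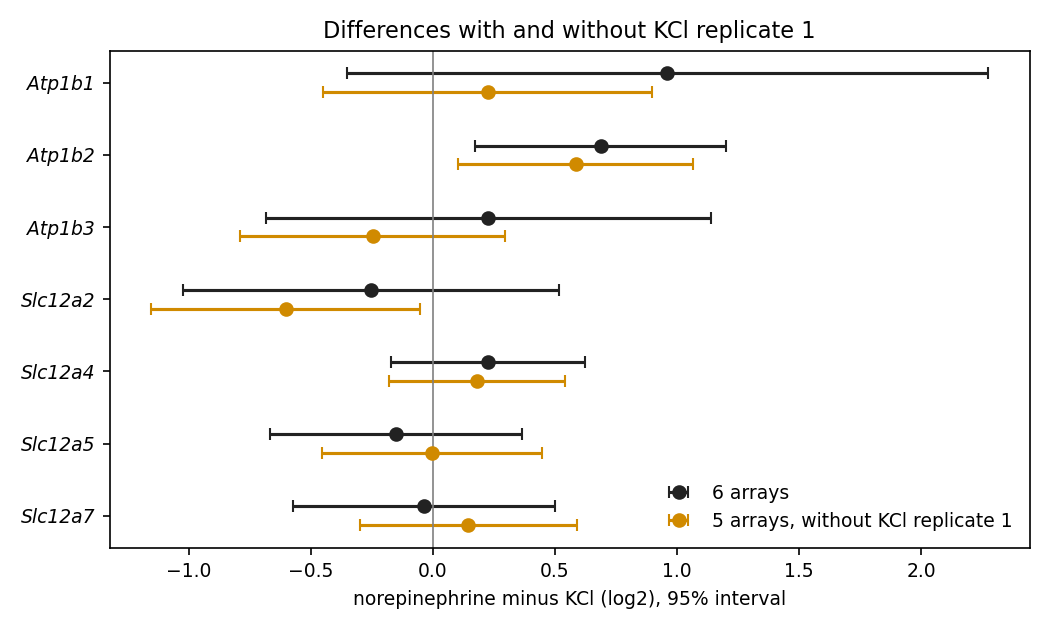
Norepinephrine minus KCl for each gene (log2) with its 95% interval by limma, on 6 arrays (black) and on 5 arrays without KCl replicate 1 (orange). The Atp1b2 interval lies above 0 in both fits, at 0.17 to 1.20 and 0.10 to 1.07, and Atp1b3 and Slc12a7 are on opposite sides of 0 in the 2 fits.

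Slc12a4 encodes KCC1, the widely expressed exporter linked to cell volume control. It read 8.19, 8.30 and 8.22 with norepinephrine, against 7.92, 8.02 and 8.10 with KCl. The groups did not overlap, and the spread within each was small, with SDs of 0.06 and 0.09. The difference was 0.22 ± 0.17 (-0.17 to 0.62), a 1.17-fold difference with an unadjusted p of 0.23 by limma. Its moderated SE is far wider than the 2 SDs because limma draws each variance toward that of all probe sets. The difference was 0.18 ± 0.16 without KCl replicate 1, and over all single arrays left out it ran from 0.18 to 0.27. With Atp1b2, which correlated with Slc12a4 at a Pearson r of 0.89 over the 6 arrays (0.82 without KCl replicate 1), it formed the pair whose groups were apart.

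Slc12a5 encodes KCC2, the exporter of mature neurons. It read 6.82, 6.56 and 6.90 with norepinephrine, against 7.20, 6.54 and 6.99 with KCl. KCl replicate 1 was the highest array here, the reverse of its place for the beta subunits and Slc12a2. The difference was -0.15 ± 0.23 (-0.67 to 0.36), and -0.0046 ± 0.20 (-0.45 to 0.45) without that array. The probe set lay at the 40.8th percentile of mean brightness, which also depends on the probes. On KCl replicate 1 it read 0.44 above the other 2 KCl arrays, close to the median of 0.45 among probe sets between the 30th and 50th percentile. Of 10 neuronal markers, 8 had higher means in norepinephrine spheres, and 0 passed over all probe sets. An unadjusted p under 0.05 with groups apart was found for 3 of the higher ones. Of all named probe sets, 3.43% had such a p and 4.36% had groups apart in that direction. The list median was 0.10, or 0.22 without KCl replicate 1, when 9 of 10 were higher. The 3 were the synaptic protein Snap25 at 1.03 ± 0.27, Gap43 of growing axons at 0.58 ± 0.19 and the neuronal tubulin Tubb3 at 0.47 ± 0.18. The mature neuron marker Rbfox3 stood at 0.08 ± 0.20. The dendritic protein Map2 stood at -0.33 ± 0.18, or -0.40 without KCl replicate 1. Its groups were apart the other way, where 4.77% of all named probe sets were. The part of these markers in the Slc12a5 values was not tested.

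Slc12a7 encodes KCC4, an exporter known from epithelia and from volume regulation. It read 6.49, 6.48 and 6.70 with norepinephrine, against 6.95, 6.16 and 6.66 with KCl. The KCl arrays spanned 0.79, over 3 times the 0.22 of the norepinephrine arrays, and enclosed all 3 of them. The difference was -0.04 ± 0.24 (-0.57 to 0.50). It was 0.06 after a further quantile normalization, 0.0017 with each array centred on its median and 0.14 ± 0.20 without KCl replicate 1, so no direction can be given.

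The spread between samples was larger with KCl than with norepinephrine in 7 of the 7 genes. The same held for 83.8% of all named probe sets, so it is not particular to these genes. With KCl replicate 1 set aside, the 2 remaining KCl arrays still differed. KCl replicate 2 lay above KCl replicate 3 by 0.87 for Atp1b1, 0.58 for Atp1b3 and 0.47 for Slc12a2. For Atp1b2, Slc12a4, Slc12a5 and Slc12a7 KCl replicate 2 was the lower of that pair. The 2 arrays differed over all named probe sets too. The SD was 1.78 and the median 7.03 on KCl replicate 2, against 1.62 and 7.17 on KCl replicate 3.

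**Figure D3:**
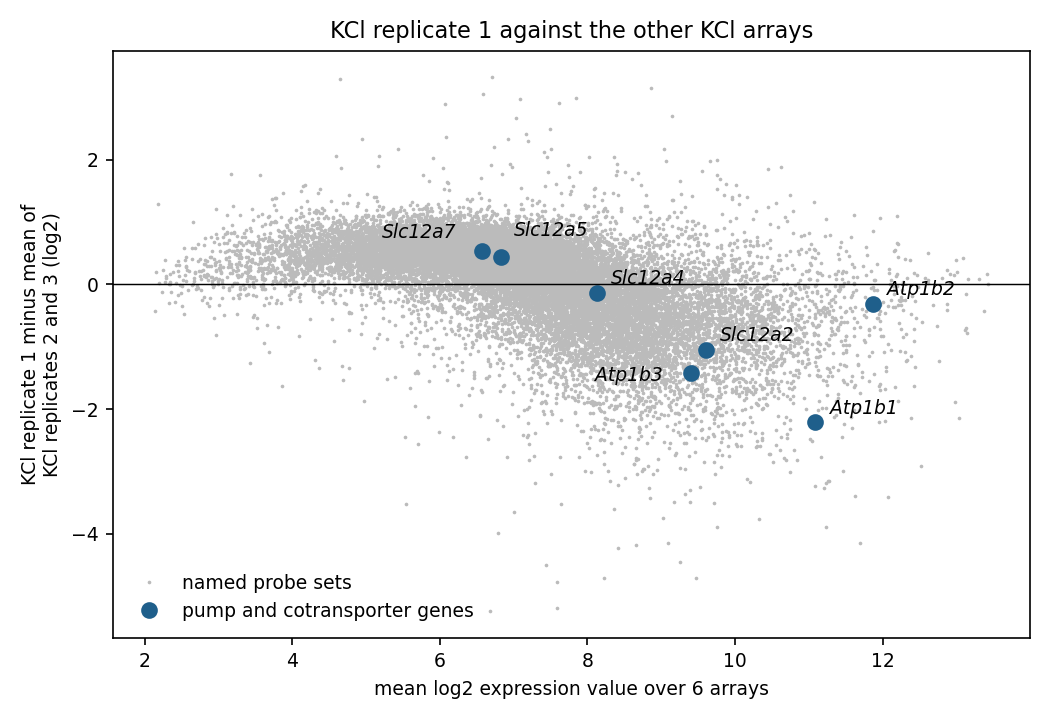
KCl replicate 1 minus the mean of KCl replicates 2 and 3 (log2) against the mean log2 expression value over 6 arrays, for the 21640 named probe sets (grey) and the 7 genes (blue). Bright probe sets tend to lie below 0 and dim ones above it. Atp1b1 lies lowest of the 7 at -2.21, Atp1b2 is nearer 0 at -0.31, and Slc12a5 and Slc12a7 lie above 0 at 0.44 and 0.54.

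A pair of balances within the family was compared on each array, since a shift that moves all genes of an array alike cancels in them. The shift of KCl replicate 1 was not alike for these genes and does not cancel. Against the mean of KCl replicates 2 and 3 it was -0.31 for Atp1b2 and -2.21 for Atp1b1. For Slc12a2 it was -1.05 and for Slc12a5 0.44. The log2 value of Atp1b2 minus that of Atp1b1 was 0.95, 0.13 and 0.85 with norepinephrine, against 2.19, -0.45 and 1.01 with KCl. The KCl values enclosed all 3 norepinephrine values. The means differed by -0.27 (exact permutation test, two-sided, p = 0.8, where 3 against 3 arrays cannot go below 0.1), and by 0.36 without KCl replicate 1. The log2 value of Slc12a2 minus that of Slc12a5, the importer against the neuronal exporter, was 2.59, 3.31 and 2.24 with norepinephrine, against 1.83, 3.78 and 2.85 with KCl. The means differed by -0.10 (exact permutation test, two-sided, p = 0.9). Without KCl replicate 1 they differed by -0.60 (exact permutation test, p = 0.4, where 3 against 2 arrays cannot go below 0.2). With 3 arrays a group, neither balance differed beyond the spread between arrays, and such values compare treatments only, since probe sets of 2 genes are not on a common scale.

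Genes around the pump were read from a fixed list. Of 19 entries, 15 were measured under a single symbol, 2 higher and 13 lower with norepinephrine, and 0 passed the test in either direction. The list median was -0.21, and 0.01 without KCl replicate 1, when 8 of 15 were higher. Atp1a4, the catalytic subunit known from sperm, read 6.01, 5.71 and 5.98 with norepinephrine, against 6.17, 5.69 and 5.89 with KCl. Its difference was -0.01, and 0.11 without KCl replicate 1. Atp1b4, a relative of the beta subunits that in mammals has lost its role in the pump, was the list's only gene whose groups did not overlap. It read 5.86, 5.64 and 5.62 with norepinephrine, against 6.25, 6.15 and 5.87 with KCl, a difference of -0.39 ± 0.19 (-0.31 without KCl replicate 1), where 4.77% of all named probe sets had groups apart in that direction. The FXYD proteins are small regulators of the pump, and differences of the 7 measured ran from -0.31 for Fxyd3 to 0.01 for Fxyd6 on 6 arrays. On the 5 arrays without KCl replicate 1 they ran from -0.12 for Fxyd4 to 0.19 for Fxyd2, with 5 of the 7 above 0, so the sign of most FXYD genes rests on that array. Fxyd1, known as phospholemman, stood at -0.08 ± 0.22 on 6 arrays and at 0.08 without that array, and the brain regulator Fxyd7 at -0.21 ± 0.24 and 0.02. Of the Nkain proteins, named for their interaction with the pump, Nkain2 stood at -0.42 ± 0.26 and Nkain3 at -0.28 ± 0.23, or at -0.19 and -0.32 without KCl replicate 1.

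Relatives of the cotransporters and the kinases that switch them were read next. WNK kinases sense chloride and volume and act through SPAK (Stk39) and OSR1 (Oxsr1), which activate NKCC1 and inhibit the KCC exporters by phosphorylation. Of 15 entries, 14 were measured, 8 higher and 6 lower with norepinephrine, 0 passed in either direction, and the median was 0.0020, or 0.046 without KCl replicate 1. Stk39 read 9.60, 9.81 and 9.59 with norepinephrine, against 8.79, 9.83 and 9.36 with KCl. Only KCl replicate 2 reached the norepinephrine arrays, and the difference of 0.34 ± 0.27 was 0.07 without KCl replicate 1. Cab39, the scaffold that activates these kinases, stood at 0.43 ± 0.37, and at -0.02 without that array. Oxsr1 stood at -0.02 ± 0.24, or -0.13 without KCl replicate 1. Wnk1 read between 11.43 and 11.81 on the 6 arrays, with a difference of 0.04 ± 0.19 that was -0.0027 without KCl replicate 1. Wnk3 differed by 0.09 ± 0.32 on 6 arrays and by -0.25 without that array. Of the other cotransporters, Slc12a1 and Slc12a3, known from the kidney, stood at -0.18 ± 0.24 and -0.19 ± 0.27, Slc12a8 at -0.14 ± 0.22 and Slc12a9 at 0.0032 ± 0.19. All 4 lay above 0 without KCl replicate 1, at 0.03 for Slc12a1, 0.08 for Slc12a3, 0.06 for Slc12a8 and 0.07 for Slc12a9.

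Carriers and pumps that use or share the sodium gradient gave 21 measured genes of 25 entries. Of these, 11 were higher and 10 lower with norepinephrine, 0 passed, and the median was 0.0031, or 0.067 without KCl replicate 1. Slc9a3r1, a scaffold that anchors sodium-proton exchangers to the membrane, was the only one at an unadjusted p under 0.05, where 3.43% of all named probe sets were. It read 9.23, 9.08 and 9.04 with norepinephrine, against 8.37, 8.52 and 8.88 with KCl, groups that did not overlap. Its difference was 0.52 ± 0.20, and 0.41 without KCl replicate 1. The chloride-bicarbonate exchanger Slc4a2 was the only one with groups apart the other way, at -0.34 ± 0.18, or -0.30 without KCl replicate 1. Of all named probe sets, 4.36% had groups apart in the direction of Slc9a3r1 and 4.77% in that of Slc4a2. On the 5 arrays without KCl replicate 1, the intracellular sodium-proton exchanger Slc9a7 stood at -0.91 ± 0.19 (adjusted p = 0.356 by limma), where on 6 arrays it stood at -0.34 ± 0.44. Slc4a4, the sodium-bicarbonate carrier of astrocytes, stood at 0.57 ± 0.43 on 6 arrays and at -0.00029 without KCl replicate 1. The calcium pump of the endoplasmic reticulum, Atp2a2, stood at 0.20 ± 0.30, or -0.15 without KCl replicate 1.

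**Figure D4:**
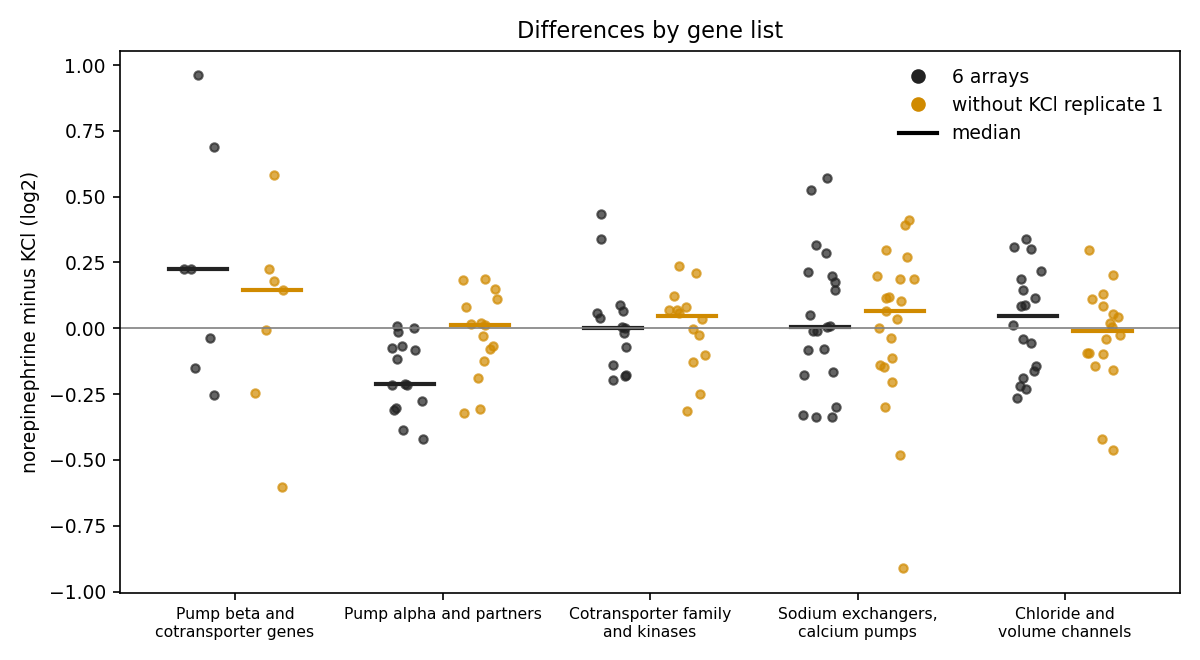
Norepinephrine minus KCl (log2) of each measured gene, for the 7 pump beta and cotransporter genes and for 4 fixed lists of related genes, on 6 arrays (black) and without KCl replicate 1 (orange), with lines at the medians. The median of the list of pump alpha and partner genes is -0.21 on 6 arrays and 0.01 without KCl replicate 1, and the medians of the other 3 lists lie between -0.0093 and 0.067.

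Genes whose values over the 6 arrays were most like each gene's were taken by Pearson correlation among 9899 or 9900 genes brighter than the median. For Atp1b2 these were Emc8 at r = 0.994 and Pde6d at 0.990, and for Slc12a4 Syne1 and Pygb, both at 0.995. Atp1b1 was closest to Yipf3 at 0.999, Atp1b3 to Wdr35 at 0.998 and Slc12a2 to Hps3 at 0.995. Slc12a5 was closest to Eif4e1b at 0.999 and Slc12a7 to Lypd5 at 0.996. With 6 points, arrays in common and so many genes searched, such values describe likeness of shape over these arrays.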

How the data were processed

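RNA from 6 neurosphere samples was measured on 1 array each. The deposited log2 values per probe set were made by the authors with Partek and RMA, per the submitters' processing notes. Their versions and settings: not given in the sources used here. Of 34760 probe sets, 21640 had a single symbol in the platform annotation. A linear model with no covariate was fitted to these with limma 3.58.1 (R 4.3.3) and moderated by eBayes, two-sided, with Benjamini-Hochberg adjustment over all of them and a threshold of 0.05. The fit was tested on simulated data with planted differences and equal spread on every array. That test does not cover an array that stands apart. Exact permutation tests used scipy 1.17.1. Groups and replicate numbers came from the sample titles. The genes and lists, 4 of related genes and 8 of cell type markers, were chosen with earlier results of these data known. All 7 genes are named, as are genes of the 4 lists of related genes, first those at an unadjusted p under 0.05 or with groups apart, and up to 2 like genes each. Cell type markers are named as examples. Genes singled out by their value without KCl replicate 1 were chosen after values were seen. Alternatives were a further quantile normalization, centring, a filter at the 30th percentile, trend and robust moderation, array weights, a replicate block, the mean of a gene's probe sets and leaving out each array. The number of arrays limits the precision.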

Additional observations from a re-analysis of the deposited data

How the results depend on the processing

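No gene of the 7 passed over all probe sets under any of the 13 alternatives, and Atp1b1, Atp1b2, Slc12a4 and Slc12a5 kept their direction in all 13. Atp1b3 was -0.069 with gene-by-gene array weights, Slc12a7 was 0.059 after a further quantile normalization and 0.0017 with centring. Leaving out 1 array at a time gave 0.22 to 1.55 for Atp1b1, 0.58 to 0.89 for Atp1b2, -0.25 to 0.61 for Atp1b3, -0.60 to 0.039 for Slc12a2, 0.18 to 0.27 for Slc12a4, -0.34 to -0.0046 for Slc12a5 and -0.25 to 0.14 for Slc12a7. The balance of Atp1b2 to Atp1b1 ran from -0.96 to 0.36 and that of Slc12a2 to Slc12a5 from -0.60 to 0.38. An unadjusted p under 0.05 was found for 743 probe sets and 1 of the 7 genes. These counts were 317 to 3532 and 0 to 2 with 1 array left out, and the count of probe sets called was 0 to 4. Gene-by-gene array weights, added after seeing the data, gave 1454 probe sets called, 5164 at an unadjusted p and 3 of the 7 genes at an unadjusted p (Atp1b1, Atp1b2 and Slc12a2, at 0.58, 0.37 and -0.50). The planned default weights did not converge, gave KCl replicate 3 a weight of 673 and were not used. With them 5670 probe sets and 3 of the 7 genes would have been called. The replicate block gave 1436 probe sets and 2 of the 7 genes, Atp1b1 and Atp1b2, at an unadjusted p, and 0 called. The labels do not say that equal replicate numbers share an animal or culture, so the numbers were not taken as pairs. Same-numbered arrays had correlations of 0.30, 0.63 and 0.085 between their deviations from the group means. Arrays of unlike numbers had -0.47 to 0.31, the highest between norepinephrine replicate 3 and KCl replicate 1. The cause of these shifts was not tested.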

Other observations

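Chloride and volume-regulated channels, which share chloride with the cotransporters, were measured in 18 of 18 listed genes. Of these, 10 were higher and 8 lower with norepinephrine, 0 passed, and the median was 0.05, or -0.0093 without KCl replicate 1. Lrrc8b, a subunit of the volume-regulated anion channel, was the only gene of this list with groups apart, where 4.36% of all named probe sets were in that direction. It read 8.25, 8.18 and 8.16 with norepinephrine, against 7.67, 7.92 and 8.07 with KCl, a difference of 0.31 ± 0.19, or 0.20 without KCl replicate 1. Lrrc8a, the subunit that this channel requires, stood at 0.12 ± 0.22, and at -0.02 without that array. Ano6, a calcium-activated channel and lipid scramblase, read 8.86, 9.33 and 9.12 with norepinephrine, against 8.97, 9.65 and 9.48 with KCl. It differed by -0.27 ± 0.24, and by -0.46 without KCl replicate 1. Ttyh3, of the tweety family, stood at 0.30 ± 0.21 on 6 arrays and 0.30 on the 5, and Ttyh1 at 0.19 ± 0.19 and 0.05.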
